A study of Mus musculus with 18 samples.

Results

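Lamin C added to hearts labelled Lmna shRNA was described across all genes, as the difference between 3 libraries labelled Lmna shRNA with lamin C and 3 libraries labelled Lmna shRNA, all from the batch that the labels call LC. These 6 libraries were taken by their labels from 18 in the series. Polyadenylated RNA of the mouse heart apex was sequenced, and the question was how more lamin A or lamin C, delivered by the adeno-associated viral vector rAAV9, acts in dilated cardiomyopathy produced by knocking Lmna down. All groups were labelled wild type. The control group of batch LC (3 libraries) is used here for background levels, and batch LA held 3 control libraries, 3 labelled Lmna shRNA and 3 labelled Lmna shRNA with lamin A. The sources used here do not give strain, sex, age, dose, the time after injection, the promoter of the vector or what the controls received. The labels do not say that the 3 libraries of a group come from separate animals, so p-values measure the spread between these libraries, which may be partly technical.

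Lmna encodes lamin A and lamin C, which are made from a shared pre-messenger RNA by alternative splicing and form the meshwork under the inner nuclear membrane. Lamin A is made as a longer precursor that is farnesylated and then cut by the protease Zmpste24, whereas lamin C has its own short tail and needs no such step. Inherited variants of LMNA in people cause dilated cardiomyopathy, often with conduction disease. A failing ventricle is known to raise fetal genes such as the natriuretic peptides and to lower genes of fatty acid oxidation, calcium cycling and repolarising currents, while fibroblasts lay down matrix.

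Libraries of the series held between 31418657 and 41259968 counts, and 17876 of the 54532 annotated genes were counted highly enough to be tested. The median absolute log2 difference over genes was 0.0935 to 0.122 between lamin C libraries, 0.107 to 0.137 between the Lmna shRNA libraries of batch LC, 0.315 to 0.395 between lamin C and Lmna shRNA libraries and 0.143 to 0.202 between lamin C and control libraries. Control replicates 1 and 2 of batch LC differed by 0.0976, and each differed from control replicate 3 by 0.146. The number in the deposited name of that replicate lies next to that of a batch LA control. Mitochondrially encoded genes took 24.03% ± 0.799 (SD, n = 3) of counts with lamin C, 14.44% ± 1.36 with Lmna shRNA and 25.36% ± 0.147 in the controls. The lamin C and Lmna shRNA groups did not overlap in this share. Their difference of 9.59 percentage points had an exact two-sided permutation p of 0.1, the smallest that 3 against 3 libraries allow. Muscle and mitochondrial genes led the lamin C libraries by FPKM, the length-scaled fragment values that the authors deposited: mt-Co1 stood first and Mb, the oxygen store myoglobin, was the first gene encoded in the nucleus.

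Lmna itself separates the groups. It stood at 1317, 1064 and 1375 CPM (counts scaled to a common library total) in the lamin C libraries, at 137, 133.5 and 115 CPM in the Lmna shRNA libraries and at 122, 128.5 and 119.8 CPM in the controls. All 3 lamin C libraries lay above every other library, while the Lmna shRNA and control libraries overlapped, so the label Lmna shRNA is not matched by a lower gene-level count. The log2 difference between lamin C and Lmna shRNA was 3.29 ± 0.0885 (SE, 3 against 3 libraries; edgeR adjusted p = 8.82e-15). Counts were made per gene, so transcripts from the vector and from the mouse gene, and lamin A and lamin C, cannot be told apart in them. Lmna lies at chr3:88480147-88509956 on the minus strand in mm10.

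Of the 17876 genes tested, 9662 (54.1%) differed between the lamin C and Lmna shRNA libraries at an edgeR adjusted p under 0.05, 4592 of them higher with lamin C (25.7%) and 5070 lower (28.4%). At least 2-fold were 1024 higher (5.73%) and 1788 lower (10%). CPM values of the groups did not overlap for 10794 genes (60.4%), and 51.8% of genes were both called and without overlap. The median log2 difference over all genes was -0.0425, and scaling by library totals alone moved it to -0.355 and the share of calls that were higher from 47.5% to 20.2%. Of 14618 protein-coding genes, 59.1% were called. Among 655 long intergenic noncoding RNAs 36.5% were called, 125 higher and 114 lower. With 54.1% of genes called, the count of called members of a list is to be read against these shares. The lists were chosen with earlier results of these data known, so their counts are descriptions only. In tissue RNA, fewer cells of a type and less RNA per cell cannot be told apart. A value printed with ± and an SE is a log2 difference of lamin C minus Lmna shRNA unless another comparison is named. The sources used here do not say if the counting was stranded, and Clcn1, Mylk4, Cacna1s, Serpinb9b, 1500015O10Rik, Ildr2, Sun1, Sun2, Uchl1, Acta1, Myl2, Abcc9, Kcnj3, Pln, Atp2a2, Dsg2, Grk5, Lox, Timp1, Ltbp3, Tgfb3, Hadha, Acadvl, Sdha, mt-Co1, Pfkm, Esrra, Psat1, Herpud1, Pdia3, Hspd1, Cdkn1a, Jun, Irf7, Trim54, Ctsb, Ctsl, Hopx, Runx1, Anxa1, Cdh5 and Prg4 overlap a gene annotated on the opposite strand, so that their counts are uncertain to that extent. Genes named outside the naming rule given below, such as Nppa, Myh7 and Col1a1, were not checked for such overlap.

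**Figure D1:**
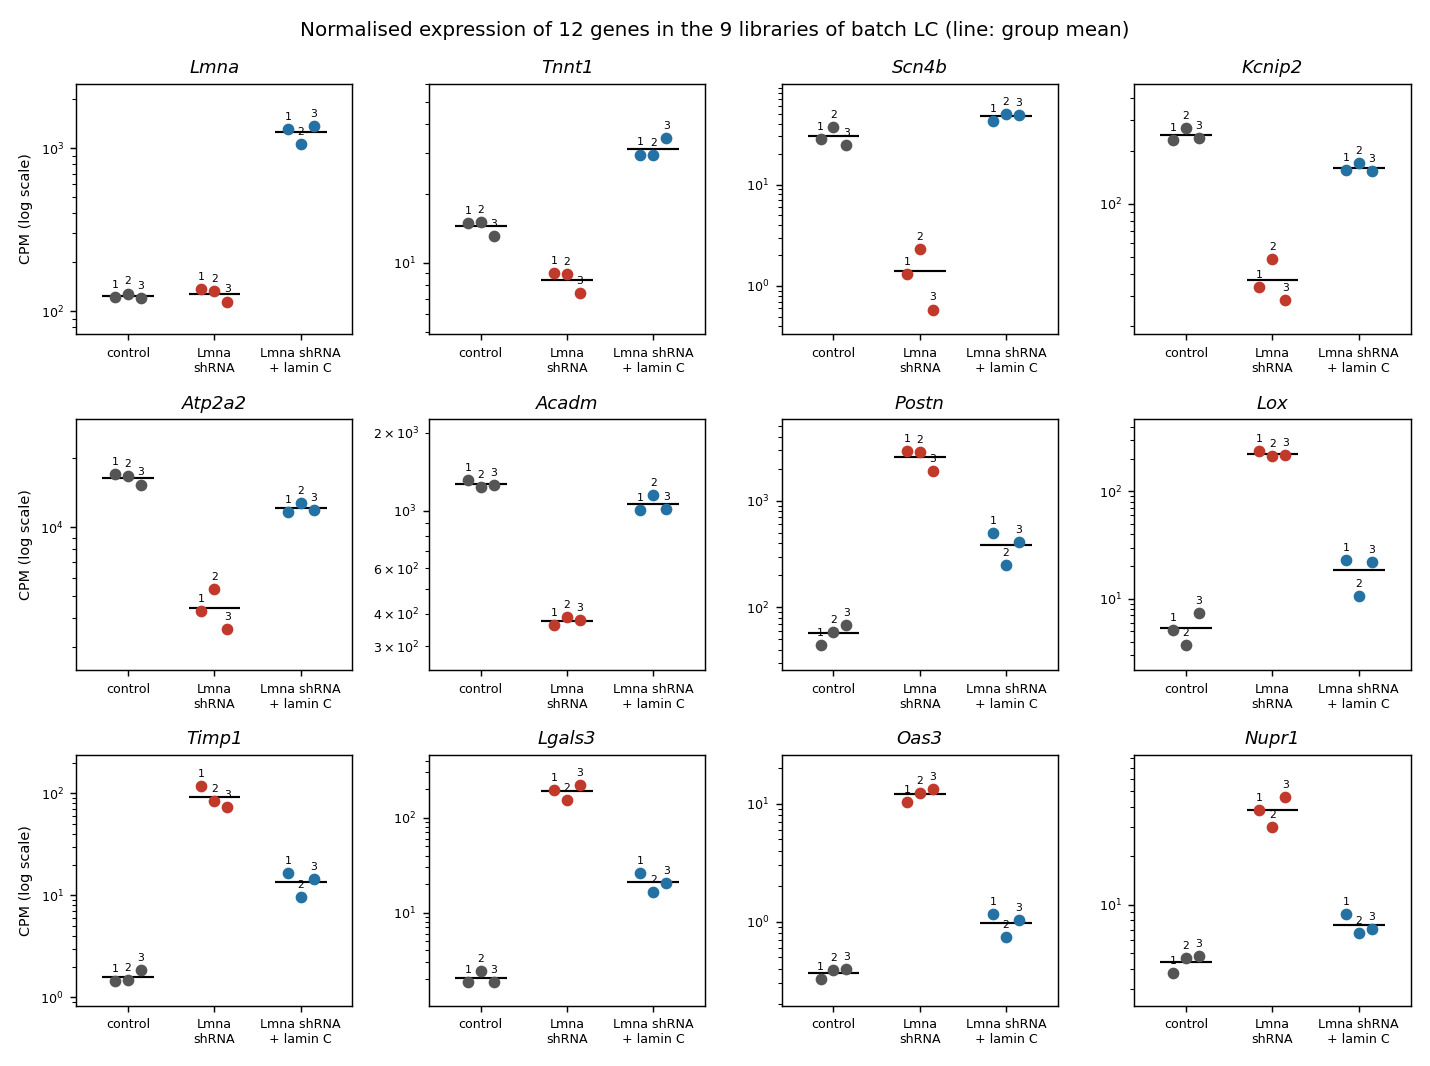
CPM of 12 genes in the 9 libraries of batch LC on log axes, with points numbered by replicate and a line at each group mean. Lmna, Tnnt1 and Scn4b are highest with lamin C, though Scn4b was not called against control. The lamin C means of Atp2a2, Acadm, Kcnip2, Postn, Lox, Timp1, Lgals3, Oas3 and Nupr1 lie between those of the Lmna shRNA and control groups.

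Few genes lay at least 2-fold outside both other groups: 16 were above both the Lmna shRNA and the control libraries (0.0895% of genes) and 6 below both (0.0336%), each call at an edgeR adjusted p under 0.05. Most of the 22 stayed under a mean of 5 CPM in their highest group. Tnnt1, which encodes the troponin T of slow skeletal muscle, stood at 9.02, 8.91 and 7.41 CPM with Lmna shRNA, at 14.96, 15.1 and 13.1 CPM in the controls and at 29.6, 29.5 and 34.8 CPM with lamin C. Its log2 difference was 1.89 ± 0.0886 against Lmna shRNA (adjusted p = 1.36e-11) and 1.12 ± 0.0867 against control (adjusted p = 1.99e-07).

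Genes that mark a stressed ventricle were lower with lamin C. Of 17 fetal and stress genes of cardiomyocytes, 15 were lower and 0 higher, with a median log2 difference of -1.48 against -0.0425 over all genes. Nppa, the atrial natriuretic peptide, fell from 13110, 10530 and 15200 CPM to 2523, 744 and 1406 CPM and stood at 136, 165 and 257 CPM in the controls. The groups did not overlap, the lamin C libraries differed from each other by more than 3-fold, and the log2 difference was -3.055 ± 0.36 (adjusted p = 6.47e-07). Myh7, the slow beta myosin heavy chain of the fetal ventricle, stood at 2466, 2133 and 7467 CPM with Lmna shRNA and at 808, 517 and 556 CPM with lamin C (log2 difference -2.68 ± 0.34, adjusted p = 1.56e-06). Replicate 3 of the Lmna shRNA group was high for Myh7, and all 3 lamin C libraries lay below its lowest fellow. Nppb, the B-type natriuretic peptide, had a log2 difference of -1.402 ± 0.27 (adjusted p = 0.000227). Uchl1, a ubiquitin hydrolase, and Clu, the secreted chaperone clusterin, had log2 differences of -2.99 ± 0.19 and -2.15 ± 0.19. Sprr1a, a stress-induced cornified envelope protein, fell by a similar size (-2.82 ± 0.27 log2), from 41.4, 28.1 and 32.7 CPM to 6.96, 2.24 and 5.48 CPM, and stayed above the controls, where it stood at 0, 0.0351 and 0.107 CPM. Acta1, skeletal alpha-actin, was not called (0.28 ± 0.285 log2, adjusted p = 0.43) and its groups overlapped, with 701, 505 and 581 CPM in the lamin C libraries and 453, 695 and 326 CPM with Lmna shRNA. Csrp3, the muscle LIM protein, was not called either (-0.06037 ± 0.0745 log2), although with library totals alone it was called lower at -0.38 (adjusted p = 0.000128).

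Genes of the sarcomere list moved the other way. Myh7, which was lower, was counted with the fetal and stress genes and is not on this list. Of 9 skeletal muscle genes, counted separately below, 5 were lower. Of 22 sarcomere genes, 20 were higher with lamin C and 0 lower, with a median log2 difference of 0.59. Myh6, the fast alpha myosin heavy chain of the adult mouse ventricle, rose from 9589, 13410 and 7630 CPM to 27450, 26570 and 27400 CPM against 36020, 34480 and 34910 CPM in the controls (log2 difference 1.41 ± 0.12, adjusted p = 1.33e-08). The groups did not overlap and every lamin C library stayed below every control library. The ventricular light chain Myl2 stood at 3076, 2978 and 2821 CPM with Lmna shRNA and 6512, 7290 and 6299 CPM with lamin C (1.18 ± 0.0603 log2), and Tnni3, cardiac troponin I, rose by 1.54 ± 0.0833 log2. Tnnt2, cardiac troponin T, was not called (0.17 ± 0.0849 log2, adjusted p = 0.0925), although without replicate 3 of the Lmna shRNA group it was called at 0.30 (adjusted p = 0.00199). Of 17 intercalated disc and costamere genes 7 were higher and 4 lower (median log2 difference 0.064). Dsc2 and Dsg2, desmosomal cadherins, rose by 1.08 ± 0.0931 and 0.93 ± 0.0877 log2, and Itgb1, a beta subunit of matrix receptors, changed by -0.62 ± 0.0565 log2. With library totals alone, 5 of the 17 were higher and 10 lower (median log2 difference -0.25).

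Ion channel genes held the steepest rises of the genes named here. Of 25 genes for ion channels and gap junctions, 21 were higher and 3 lower, with a median log2 difference of 1.08. Scn4b, an auxiliary beta subunit of the sodium channel, stood at 1.31, 2.29 and 0.586 CPM with Lmna shRNA, 42.8, 49.6 and 48.6 CPM with lamin C and 28.2, 37.4 and 24.5 CPM in the controls. The log2 difference was 5.09 ± 0.35 (adjusted p = 4.92e-10), and every lamin C library lay above all controls without a call against them (0.65 ± 0.26, adjusted p = 0.101). Clcn1, the chloride channel of skeletal muscle, rose from 0.104, 0.373 and 0.153 CPM to 5.495, 6.44 and 6.17 CPM (4.885 ± 0.38 log2) and stayed below the controls at 18.04, 12.6 and 12.3 CPM (-1.245 ± 0.24 log2, adjusted p = 0.00158). Kcnip2, the beta subunit of the transient outward potassium current, stood at 33.7, 48.1 and 28.35 CPM with Lmna shRNA and 155, 169.8 and 152 CPM with lamin C (2.12 ± 0.14 log2, adjusted p = 4.49e-10). Its controls were higher again, at 228, 269 and 236 CPM. Kcnv2, a silent potassium channel subunit, and Kcnj3, a G-protein-gated inward rectifier, rose by 3.60 ± 0.25 and 2.14 ± 0.145 log2. Kcnj11 and Abcc9, the pore and the regulatory subunit of the ATP-sensitive potassium channel, rose by 1.10 ± 0.0643 and 1.35 ± 0.085 log2. Gja1, connexin 43, was not called (0.14 ± 0.12 log2), and without replicate 2 of the lamin C group it was called at 0.28 (adjusted p = 0.0497).

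Calcium handling and adrenergic genes were mixed in size. Of 16 calcium handling genes 11 were higher and 3 lower (median log2 difference 0.48). Atp2a2, the calcium pump of the sarcoplasmic reticulum, stood at 4308, 5350 and 3592 CPM with Lmna shRNA and at 11630, 12750 and 11910 CPM with lamin C. Every lamin C library lay between the Lmna shRNA libraries and the controls, which stood at 17070, 16750 and 15340 CPM, and the log2 differences were 1.45 ± 0.10 against Lmna shRNA and -0.44 ± 0.0979 against control (adjusted p = 5.42e-10 and 0.00492). Pln, the inhibitor phospholamban, rose by 1.39 ± 0.0685 log2, and Hrc, a calcium-binding protein of the reticulum, by 2.32 ± 0.145 log2. Jph2, which ties the reticulum to the T-tubule, rose by 1.005 ± 0.0646 log2. Slc8a1, the sodium-calcium exchanger, and Fkbp1b, which binds the ryanodine receptor, were among the 3 that fell (-0.72 ± 0.17 and -1.38 ± 0.22 log2). Among 18 adrenergic and muscarinic signalling genes 13 were higher and 2 lower (median log2 difference 0.44), with 9 higher, 4 lower and 0.13 under library totals alone: Adra1a, an alpha-1 receptor, rose by 2.17 ± 0.205 log2, and Grk5, a receptor kinase, changed by -1.08 ± 0.0872 log2.

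Genes of mitochondrial fuel use rose together. All 37 nuclear-encoded respiratory chain genes on the list were higher with lamin C (median log2 difference 0.88), as were 25 of 25 genes of the citric acid cycle and pyruvate oxidation (median 0.97), 25 of 28 for fatty acid uptake and oxidation (1 lower, or 0 without replicate 2 of the lamin C group, median 1.31) and 19 of 20 for branched-chain amino acid and ketone use (0 lower, median 1.06). The groups did not overlap for any of the 37 respiratory chain genes. Acadm, the medium-chain acyl-CoA dehydrogenase, stood at 362, 387 and 378 CPM with Lmna shRNA, 1009, 1154 and 1015 CPM with lamin C and 1319, 1237 and 1253 CPM in the controls (1.495 ± 0.0633 log2, adjusted p = 9.19e-12). Hadha and Acadvl, of long-chain fatty acid oxidation, rose by 1.402 ± 0.0739 and 1.42 ± 0.0763 log2. Ndufv1 of complex I and Sdha of complex II rose by 1.03 ± 0.0538 and 1.16 ± 0.0638 log2, and citrate synthase, Cs, by 1.15 ± 0.0655 log2. Ivd, a dehydrogenase of leucine breakdown, rose by 1.59 ± 0.0744 and stayed below the controls (-0.48 ± 0.0726 log2, adjusted p = 0.000207). Against control, 0 of the 37 respiratory chain genes were higher and 18 lower, and 0 of the 28 fatty acid genes were higher and 18 lower, with medians of -0.22 and -0.29.

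Regulators and other fuels followed in part. Of 18 regulators of mitochondrial metabolism 14 were higher and 0 lower, or 1 lower without replicate 2 of the Lmna shRNA group or replicate 3 of the lamin C group (median log2 difference 0.69), among them Perm1 (1.31 ± 0.0771 log2) and the nuclear receptors Esrra (0.75 ± 0.0623 log2) and Rxrg (1.65 ± 0.14 log2). Of 24 glucose uptake and glycolysis genes 12 were higher and 9 lower (median log2 difference 0.26, or -0.05 with library totals alone). The muscle forms Pfkm, Eno3 and Pygm rose by 1.26 ± 0.0663 log2, 1.39 ± 0.0764 and 1.48 ± 0.0834 log2, and Pfkp, the platelet form of phosphofructokinase, fell from 194, 181 and 219 CPM to 103, 85.1 and 90.8 CPM (-1.09 ± 0.0994 log2). Of 13 mitochondrially encoded protein genes 12 were higher, or 5 with limma on log2(FPKM + 1) without a filter (median log2 difference 1.06), with mt-Co1 at 0.98 ± 0.0689. The value of mt-Atp8 rested on 1 library: it stood at 44.6, 57.0 and 740 CPM with lamin C, and without replicate 3 its log2 difference of 3.45 ± 0.93 became 0.99 (adjusted p = 0.252). Reads of these genes may be shared with nuclear copies, and mt-Atp8 overlaps mt-Atp6.

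**Figure D2:**
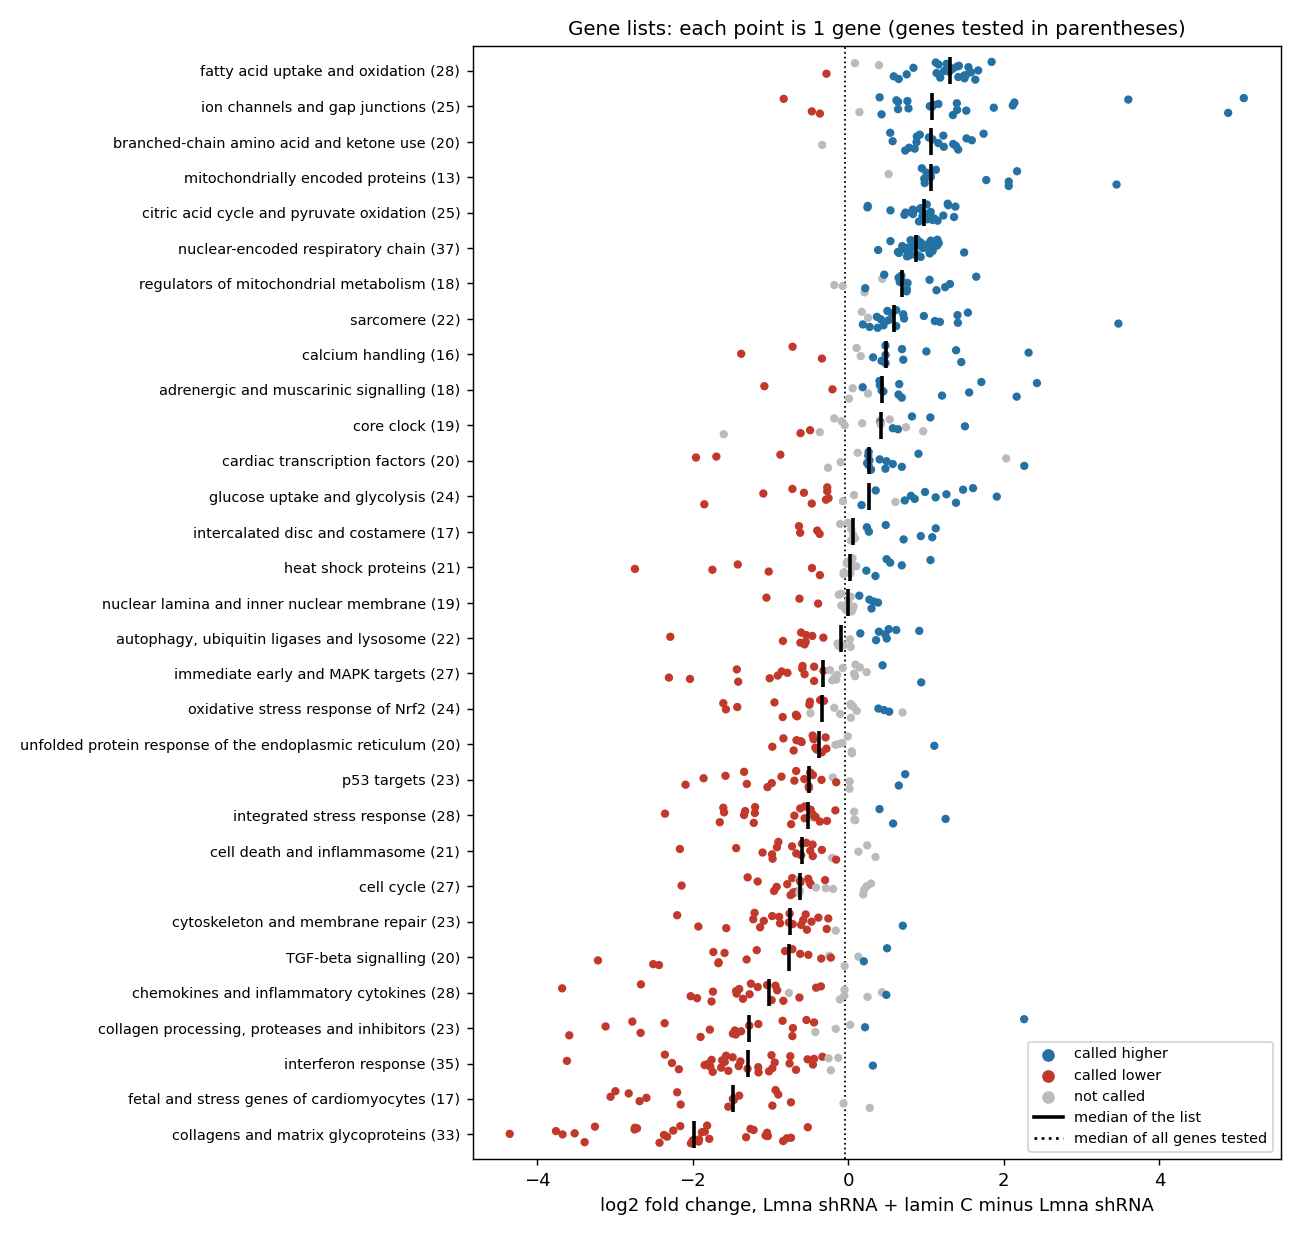
Log2 differences of the members of 31 gene lists between lamin C and Lmna shRNA libraries, 1 point a gene, coloured by call, with the median of each list as a bar and the median of all genes, -0.0425, as a dotted line. The medians run from -1.98 for collagens and matrix glycoproteins to 1.31 for fatty acid uptake and oxidation.

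Matrix genes showed the opposite pattern to fuel genes. All 33 collagen and matrix glycoprotein genes were lower with lamin C, 33 of 33 without overlap, and their median log2 difference was -1.98. Postn, periostin, stood at 2939, 2894 and 1920 CPM with Lmna shRNA, 498, 249 and 408 CPM with lamin C and 44.7, 58.5 and 69.0 CPM in the controls (-2.75 ± 0.21 against Lmna shRNA, 2.75 ± 0.22 log2 against control). On the log scale, lamin C lay about midway for this gene. Col1a1, a chain of type I collagen, fell from 1217, 1725 and 1085 CPM to 418, 237 and 364 CPM, with 113, 125 and 170.1 CPM in the controls (-1.98 ± 0.19 log2, adjusted p = 4.08e-08). Comp, a cartilage matrix protein, stood at 295, 233 and 447 CPM with Lmna shRNA and 27.7, 5.24 and 15.25 CPM with lamin C. Fmod, the collagen-binding fibromodulin, stood at 119, 131.5 and 108 CPM with Lmna shRNA and 14.7, 2.65 and 9.65 CPM with lamin C. In both, replicate 2 of the lamin C group was lowest. Their log2 differences were -4.35 ± 0.41 and -3.76 ± 0.37 (adjusted p = 3.56e-08 and 7.08e-08). Against control, 29 of the 33 genes were still higher and 0 lower (median log2 difference 1.10).

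Matrix-processing enzymes and genes of the TGF-beta pathway, a main profibrotic signal, were mostly lower too. Of 23 genes for collagen processing, proteases and inhibitors 18 were lower and 2 higher (median log2 difference -1.27). Lox, the collagen cross-linking lysyl oxidase, stood at 237, 212 and 217 CPM with Lmna shRNA, 23.05, 10.5 and 22.05 CPM with lamin C and 5.10, 3.75 and 7.34 CPM in the controls (-3.59 ± 0.22 log2, adjusted p = 1.4e-10). For Lox the 3 groups did not overlap. Timp1, an inhibitor of matrix proteases, stood at 118, 84.3 and 73.95 CPM with Lmna shRNA, 16.6, 9.64 and 14.4 CPM with lamin C and 1.44, 1.47 and 1.86 CPM in the controls (-2.775 ± 0.19 log2). Timp4, the inhibitor typical of heart muscle, rose from 8.92, 9.63 and 9.25 CPM to 45.4, 51.5 and 36.35 CPM (2.26 ± 0.27 log2, adjusted p = 8.22e-07); without replicate 2 of the lamin C group 1 of the 23 was higher. Of 20 TGF-beta signalling genes 15 were lower and 2 higher (median log2 difference -0.77); without replicate 1 of the Lmna shRNA group or replicate 3 of the lamin C group 1 was higher. The ligand Tgfb3 changed by -1.73 ± 0.12 log2, the receptor Tgfbr1 by -1.18 ± 0.084 and the latency protein Ltbp3 by -1.31 ± 0.0779 log2, while the transducer Smad3 was not called (0.13 ± 0.105 log2).

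Macrophage and chemokine genes were mostly lower with lamin C. Of 20 macrophage and monocyte markers 17 were lower and 2 higher (median log2 difference -1.08), and 17 were above the controls. Lgals3, the lectin galectin-3, stood at 198, 153 and 224 CPM with Lmna shRNA, 26.2, 16.6 and 20.8 CPM with lamin C and 1.86, 2.46 and 1.86 CPM in the controls. Its log2 differences were -3.18 ± 0.15 against Lmna shRNA and 3.36 ± 0.195 against control (adjusted p = 1.36e-11 and 5.2e-09). The complement genes C1qa, C1qb and C1qc changed by -1.215 ± 0.0631 log2, -1.11 ± 0.0696 and -1.06 ± 0.0636 log2. The 2 markers that rose were Lyve1 (0.66 ± 0.15 log2) and Timd4 (1.17 ± 0.265 log2), and Cd163 was not called. Of 28 chemokine and cytokine genes 21 were lower and 1 higher, or 2 higher without replicate 2 of the Lmna shRNA group (median log2 difference -1.01); the membrane chemokine Cx3cl1 fell from 44.8, 40.7 and 55.4 CPM to 12.2, 9.39 and 13.1 CPM (-2.025 ± 0.16 log2), and Osmr, the oncostatin M receptor, changed by -0.94 ± 0.08 log2.

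The interferon list was lower in 31 of 35 genes, with 1 higher (median log2 difference -1.29). Oas3, a sensor of double-stranded RNA, stood at 10.35, 12.2 and 13.35 CPM with Lmna shRNA, 1.17, 0.737 and 1.04 CPM with lamin C and 0.327, 0.386 and 0.394 CPM in the controls (-3.62 ± 0.22 log2, adjusted p = 1.34e-10). Irf7, the factor that amplifies interferon transcription, fell from 119.7, 117 and 131 CPM to 34.9, 35.6 and 31.7 CPM (-1.85 ± 0.11 log2), and Isg15, a ubiquitin-like protein, from 27.5, 27.3 and 23.8 CPM to 7.06, 8.19 and 7.18 CPM (-1.81 ± 0.16 log2). Ifit1, which binds foreign RNA caps, stood at 61.1, 63.4 and 66.8 CPM with Lmna shRNA and 23.1, 21.6 and 16.95 CPM with lamin C (-1.63 ± 0.14 log2). The groups did not overlap in any of these 4. Rsad2, viperin, stood at 39.45, 43.4 and 51.5 CPM with Lmna shRNA, 37.4, 48.85 and 36.4 CPM with lamin C and 36.7, 38.5 and 44.1 CPM in the controls and was not called (-0.13 ± 0.13 log2, adjusted p = 0.437), although with library totals alone it was called lower at -0.45 (adjusted p = 0.00776). Irf1, a regulator of the pathway, was the gene that rose (0.32 ± 0.0873 log2, adjusted p = 0.00467), and with library totals alone it was not called (0.0032, adjusted p = 0.978).

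Promoters of the interferon list were read because so many of its members moved together. The letters GAAANNGAAA, the core to which interferon-activated factors bind, were searched on both strands of the 300 bases around each RefSeq start (250 before, 50 after; GRCm38.p6). They were found in 3.44% of 32851 promoters, and in 3.99% of genes. Of the 24 list genes matched by symbol 14 held them, among the 20 matched lower genes 12. The site shown for Isg15 is 1 of 3 overlapping matches, and Ifit1 holds a further match upstream of the site shown. Sites that lie wholly before the start are shown with 20 bases on each side, in the gene's own direction and with the match in capitals; capitals starting with TTTC are the reverse strand.
Oas3, chr5:120777705-120777754, minus strand: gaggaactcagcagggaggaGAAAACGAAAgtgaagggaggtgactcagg
Isg15, chr4:156200861-156200910, minus strand: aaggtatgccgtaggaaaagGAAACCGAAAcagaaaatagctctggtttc
Ifit1, chr19:34640784-34640833, plus strand: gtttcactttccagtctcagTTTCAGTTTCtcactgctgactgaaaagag
Rsad2, chr12:26456543-26456592, minus strand: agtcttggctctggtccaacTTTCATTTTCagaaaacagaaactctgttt
The match of Oas3 starts 75 bases before the start of the gene, that of Isg15 72, that of Ifit1 85 and that of Rsad2 120. Rsad2 carries the letters too, and a match is a description of the sequence only.

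Stress pathways differed in size. Of 28 integrated stress response genes 21 were lower and 3 higher (median log2 difference -0.52), and 13 were above the controls. Nupr1, a stress-induced chromatin protein, stood at 38.2, 30.2 and 46.1 CPM with Lmna shRNA, 8.76, 6.66 and 7.06 CPM with lamin C and 3.76, 4.67 and 4.83 CPM in the controls (-2.355 ± 0.155 log2, adjusted p = 3.38e-10). Atf3, a transcription factor of the pathway, fell from 34.8, 25.9 and 45.8 CPM to 12.5, 7.945 and 13.55 CPM (-1.65 ± 0.20 log2). The serine and folate enzymes Psat1 and Mthfd2 changed by -1.60 ± 0.12 and -1.34 ± 0.14 log2. Gdf15, a circulating stress cytokine, fell least among these, from 17.2, 15.6 and 12.9 CPM to 12.4, 6.03 and 10.04 CPM (-0.69 ± 0.17 log2), and stood at 0.621, 0.667 and 0.4295 CPM in the controls (4.03 ± 0.28 log2 against control, adjusted p = 4.86e-08).

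The letters TGATGNAA, the core of the element bound by C/EBP-ATF dimers such as those of Atf4, were searched the same way and stood in 3.97% of promoters and 4.51% of genes. They were found in 8 of the 23 matched genes of the list, 7 of the 18 matched lower ones. Sites before the start of 3 genes are shown; Chac1, a glutathione-degrading enzyme, carries one and was not called (0.07884 ± 0.19 log2).
Nupr1, chr7:126625553-126625600, minus strand: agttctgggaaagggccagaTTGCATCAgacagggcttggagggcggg
Atf3, chr1:191183416-191183463, minus strand: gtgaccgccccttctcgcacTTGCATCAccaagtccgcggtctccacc
Chac1, chr2:119351029-119351076, plus strand: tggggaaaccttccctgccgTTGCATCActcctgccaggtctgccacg

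Of 20 genes of the unfolded protein response 13 were lower and 1 higher (median log2 difference -0.37). Edem1, which clears misfolded glycoproteins, changed by -0.98 ± 0.0643 and Pdia3, a disulphide isomerase, by -0.61 ± 0.0908 log2, whereas the main chaperone Hspa5 was not called (-0.12 ± 0.12 log2, or -0.43 and called with library totals alone) and Herpud1 rose by 1.11 ± 0.15 log2. Of 23 p53 target genes 18 were lower and 2 higher (median log2 difference -0.51). Cdkn1a, the cell cycle inhibitor p21, stood at 147.5, 137 and 166 CPM with Lmna shRNA, 34.2, 37.2 and 34.35 CPM with lamin C and 9.02, 11.54 and 24.8 CPM in the controls (-2.09 ± 0.21 log2), and Phlda3, an Akt inhibitor, changed by -1.86 ± 0.0844 log2. Of 24 Nrf2 genes 12 were lower and 3 higher, or 1 higher with library totals alone (median log2 difference -0.34), with haem oxygenase, Hmox1, at -1.57 ± 0.0933 log2. Of 21 heat shock genes 6 were higher and 6 lower (median log2 difference 0.028; 3 higher, 14 lower and -0.28 with library totals alone). The mitochondrial chaperones Hspd1 and Hspa9 rose by 1.06 ± 0.0727 and 0.69 ± 0.0546 log2, and the cytosolic Hspa1b and Hspb1 changed by -2.74 ± 0.195 and -1.42 ± 0.11 log2. Hspa1b has a near-identical copy, Hspa1a, so its value is uncertain.

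Of 23 cytoskeleton and membrane repair genes 21 were lower and 1 higher (median log2 difference -0.75). Fhl1, a LIM protein of stretched muscle, fell from 622, 550.5 and 628 CPM to 171, 148.5 and 154 CPM (-1.93 ± 0.0905 log2, adjusted p = 1.36e-11), Anxa1, an annexin of wounded membranes, changed by -1.57 ± 0.074 log2, and the intermediate filament gene Vim by -1.20 ± 0.0639 log2. Of 27 cell cycle genes 17 were lower and 0 higher (median log2 difference -0.62), but 9 were lower and 1 higher without replicate 2 of the Lmna shRNA group, and 1 was higher without replicate 1 of the lamin C group. Mcm6, a replication helicase, changed by -1.16 ± 0.0767 log2. Of 27 immediate early and MAPK genes 14 were lower and 2 higher (median log2 difference -0.32), and without replicate 1 or replicate 2 of the Lmna shRNA group 1 was higher; Egr2 changed by -2.03 ± 0.24 while Jun was not called (0.24 ± 0.17 log2). Cell death and inflammasome genes were lower in 17 of 21 (0 higher, or 1 without replicate 2 of the lamin C group, median log2 difference -0.60). Of 22 autophagy and lysosome genes 8 were higher and 9 lower (median log2 difference -0.09), with 3 higher, 15 lower and -0.40 under library totals alone: the muscle ubiquitin ligase Trim54 rose by 0.91 ± 0.0699 and the cathepsins Ctsb and Ctsl changed by -0.62 ± 0.0535 and -0.84 ± 0.0734 log2.

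Of 20 cardiac transcription factors 13 were higher and 3 lower (median log2 difference 0.27, with 5 higher, 6 lower and -0.05 under library totals alone). Hopx, a homeodomain protein of the heart, stood at 39.7, 41.9 and 37.9 CPM with Lmna shRNA, 176, 211 and 187 CPM with lamin C and 253, 263 and 223 CPM in the controls (2.26 ± 0.105 log2, adjusted p = 1.36e-11). Runx1, raised in injured myocardium, fell from 22.1, 20.7 and 18.2 CPM to 6.23, 3.85 and 5.72 CPM (-1.96 ± 0.185 log2), and Tbx20 changed by -0.87 ± 0.0875 where Tbx5 rose by 0.90 ± 0.0985 log2. Of 19 core clock genes 6 were higher and 2 lower (median log2 difference 0.42). The counts became 3 higher and 5 lower under library totals alone, 12 higher and 4 lower with no filter on low counts, and 10 higher and 5 lower with the compared groups fitted alone; Hlf, a clock-controlled transcription factor, rose by 1.501 ± 0.27 log2. Among 19 genes of the nuclear lamina and inner nuclear membrane other than Lmna, 5 were higher and 3 lower (median log2 difference 0.0027; 0 higher, 15 lower and -0.31 with library totals alone). Tmem43, an inner membrane protein tied to cardiomyopathy, fell from 74.4, 70.4 and 78.0 CPM to 39.3, 32.9 and 35.45 CPM against 28.65, 29.3 and 31.8 CPM in the controls (-1.05 ± 0.0696 log2, adjusted p = 3.58e-10). The linker proteins Sun1 and Sun2 rose by 0.38 ± 0.0552 and 0.33 ± 0.0614 log2, but by 0.070 and 0.015 with library totals alone (adjusted p = 0.303 and 0.85).

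Markers of other cell types were counted in the same libraries. Some genes are on more than 1 list, so the counts of different lists are not independent. Comp and Lox, given above with the matrix genes, are also activated fibroblast markers. Nppa and Kcnj3, given above with the stress and channel genes, are also on the atrial list. Of 12 fibroblast markers 10 were lower (0 higher, or 1 without replicate 3 of the Lmna shRNA group, median log2 difference -0.72), and of 12 activated fibroblast markers 10 were lower (0 higher, median -3.01). The summed CPM of the 12 fibroblast markers ran from 2725 to 3345 with lamin C, from 4494 to 4796 with Lmna shRNA and from 2352 to 2791 in the controls. The sum of the 20 macrophage and monocyte markers ran from 833.5 to 993.3 with lamin C, from 1834 to 2025 with Lmna shRNA and from 498.6 to 597.9 in the controls. Lamin C thus overlapped the controls in the fibroblast sum and lay above them in the macrophage sum. Gene by gene, 7 of the 12 fibroblast markers were called above control and 0 below (median log2 difference 0.40 against control). Endothelial markers were higher in 10 of 14 and lower in 1, or in 0 without replicate 3 of the Lmna shRNA group or replicate 2 of the lamin C group (median log2 difference 0.39; 5 higher and 3 lower with library totals alone), for example the water channel Aqp1 (1.63 ± 0.115 log2) and the cadherin Cdh5 (0.63 ± 0.0615 log2). Their summed CPM ran from 2117 to 2216 with lamin C and from 1334 to 1527 with Lmna shRNA. Smooth muscle and pericyte markers were 4 higher and 4 lower of 10 (median log2 difference 0.15, or -0.16 with library totals alone), with the calponin gene Cnn1 falling from 51.7, 44.2 and 46.7 CPM to 5.23, 2.785 and 4.02 CPM (-3.58 ± 0.28 log2). T and natural killer cell markers were low: 7 of 15 reached 1 CPM in the Lmna shRNA group and 2 of 15 with lamin C, and 4 were lower (8 with library totals alone, 1 without replicate 2 of the lamin C group, 2 without replicate 2 of the Lmna shRNA group). All 5 erythroid genes were called higher (median log2 difference 1.38) and their groups overlapped in every gene; 2 were called with DESeq2, 1 with library totals alone, and 0 without replicate 2 or replicate 3 of the lamin C group, or without replicate 1 or replicate 2 of the Lmna shRNA group. Of 5 neutrophil markers tested 1 was lower, or 2 without replicate 2 of the Lmna shRNA group. Of 10 B cell markers 2 were higher and 1 lower (median log2 difference 0.81, or 0.50 with library totals alone); without replicate 1 of the lamin C group 4 were higher, and without its replicate 2 or replicate 3 only 1 was. Their summed CPM ran from 16.95 to 27.74 with lamin C and from 18.14 to 23.12 with Lmna shRNA, so the groups overlapped. Of 6 adipocyte markers 2 were higher and 0 lower, or 1 lower without replicate 1 of the Lmna shRNA group (median log2 difference 0.059, or -0.25 with library totals alone). Atrial genes were higher in 3 of 9 and lower in 5 (median log2 difference -0.86), and skeletal muscle genes were higher in 1 of 9 and lower in 5 (median -1.25). The summed CPM of the 9 skeletal muscle genes went the other way. It stood at 1050, 1391 and 733.5 with Lmna shRNA and at 2286, 2254 and 2261 with lamin C. Only 5 of the 9 reached 1 CPM in the Lmna shRNA group and 3 with lamin C. Of 8 mesothelial and epicardial markers 3 were lower and 0 higher (median log2 difference -1.15). In that list 4 members reached 1 CPM in the Lmna shRNA group and 3 with lamin C. Of 9 Schwann cell and neuron markers 5 were lower and 0 higher (median -1.21). That median became -0.40 with a filter of 1 CPM in 3 libraries and -0.37 with the compared groups alone, each with 7 genes tested and 4 lower. The part of cell-type shares in the differences above was not tested.

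The steepest falls outside the lists were of single genes named by size. Among protein-coding genes whose groups did not overlap and reached 5 CPM, Chil1, a chitinase-like protein, changed most, from 9.04, 5.55 and 25.7 CPM with Lmna shRNA to 0.433, 0.191 and 0.3575 CPM with lamin C (-5.37 ± 0.56 log2, adjusted p = 1.4e-07). The serpins Serpinb9b and Serpinb1a changed by -4.49 ± 0.28 and -4.355 ± 0.17 log2. Serpinb1a, an inhibitor of neutrophil proteases, stood at 105, 72.7 and 105.5 CPM with Lmna shRNA, 4.66, 4.37 and 4.83 CPM with lamin C and 4.345, 3.65 and 3.22 CPM in the controls, against which it was not called (0.30 ± 0.21 log2). Slfn4, a myeloid Schlafen gene, changed by -4.24 ± 0.31 log2, 1500015O10Rik by -4.09 ± 0.40 and Ildr2, an immunoglobulin-like membrane receptor, by -3.69 ± 0.27 log2. Of the steep rises outside the channels, Ces1d, a lipid-cleaving carboxylesterase, stood at 5.37, 7.89 and 1.43 CPM with Lmna shRNA and 107, 129 and 98.1 CPM with lamin C (4.505 ± 0.32 log2). Mylk4, a myosin light chain kinase of muscle, stood at 12.5, 21.5 and 11.4 CPM with Lmna shRNA and 236, 227 and 211 CPM with lamin C (3.90 ± 0.25 log2, adjusted p = 2.19e-10). The pore subunit of the skeletal calcium channel, Cacna1s, rose by 3.29 ± 0.20 log2.

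Against control libraries, 2690 genes (15%) differed with lamin C, 1585 higher (8.87%) and 1105 lower (6.18%), 585 of them at least 2-fold (3.27%). Without replicate 1 of the lamin C group 1507 were called and without its replicate 3 1752, and the lower count became 441 and 560, or 709 without replicate 1 of the controls. This comparison shares the lamin C libraries with the main one, so the values stand side by side only. Of the 33 matrix genes 29 were above control, of 12 activated fibroblast markers 10 (median log2 difference 2.78), of 35 interferon genes 26 (median 0.51), of 17 fetal and stress genes 8 (median 0.79) and of 23 cytoskeleton genes 17. Below control were 20 of 25 citric acid cycle genes (median log2 difference -0.27), 17 of 20 of branched-chain amino acid and ketone use (median -0.32), 9 of 25 channel genes and 7 of 22 sarcomere genes. Lgals3 stood 3.36 ± 0.195 above control and Timp1 3.08 ± 0.26, both as log2 differences. 

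**Figure D3:**
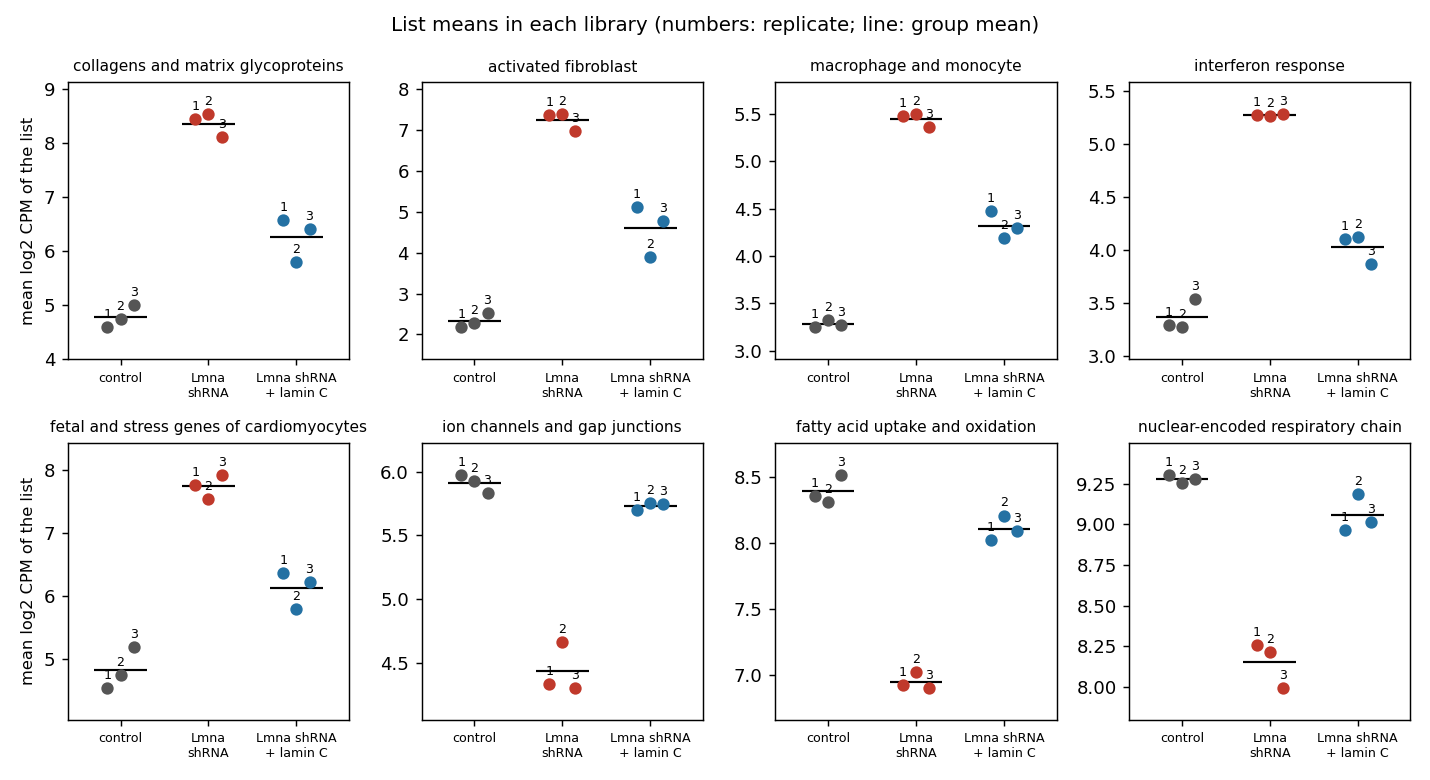
Mean log2 CPM of 8 gene lists in each library of batch LC, with replicate numbers and a line at each group mean. In all 8 lists the lamin C libraries lie between the Lmna shRNA and the control libraries, and replicate 2 of the lamin C group is the nearest to control in 7 of them.

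The lamin C libraries were not alike in every list. Replicate 2, which had the lowest Lmna CPM of the 3, was the lowest of them in 33 of 33 matrix genes, 12 of 12 fibroblast markers, 11 of 12 activated fibroblast markers, 16 of 20 macrophage markers and 14 of 17 fetal and stress genes. It was the highest in 37 of 37 respiratory chain genes, 23 of 25 citric acid cycle genes and 25 of 28 fatty acid genes. Over all genes tested it was lowest in 36.8% and highest in 35.4%; among the 5070 genes called lower it was lowest in 54.5%, and among the 4592 called higher it was highest in 57.9%. The mean log2 CPM of the matrix list was 6.58, 5.80 and 6.41 in the 3 lamin C libraries, 8.44, 8.53 and 8.11 with Lmna shRNA and 4.59, 4.73 and 5.001 in the controls. For the interferon list replicate 3 was the lowest instead, in 27 of 35 genes. With 3 libraries the relation of Lmna level to these lists cannot be tested.

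Hearts of batch LA gave a reference list made without any library of the main comparison. There, 5784 genes were higher with Lmna shRNA than in control (32.4%) and 5191 lower (29%). Of the 5784, 4368 were lower with lamin C in batch LC (75.5% of them and 86.2% of all genes lower with lamin C), 9 were higher and 1407 were not called. Of the 5191, 4031 were higher with lamin C (77.7% of them and 87.8% of all higher genes), 5 were lower and 1155 were not called. The median log2 difference with lamin C was -0.617 over the first list, 0.489 over the second and -0.0279 over the 6901 genes not called in batch LA.

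**Figure D4:**
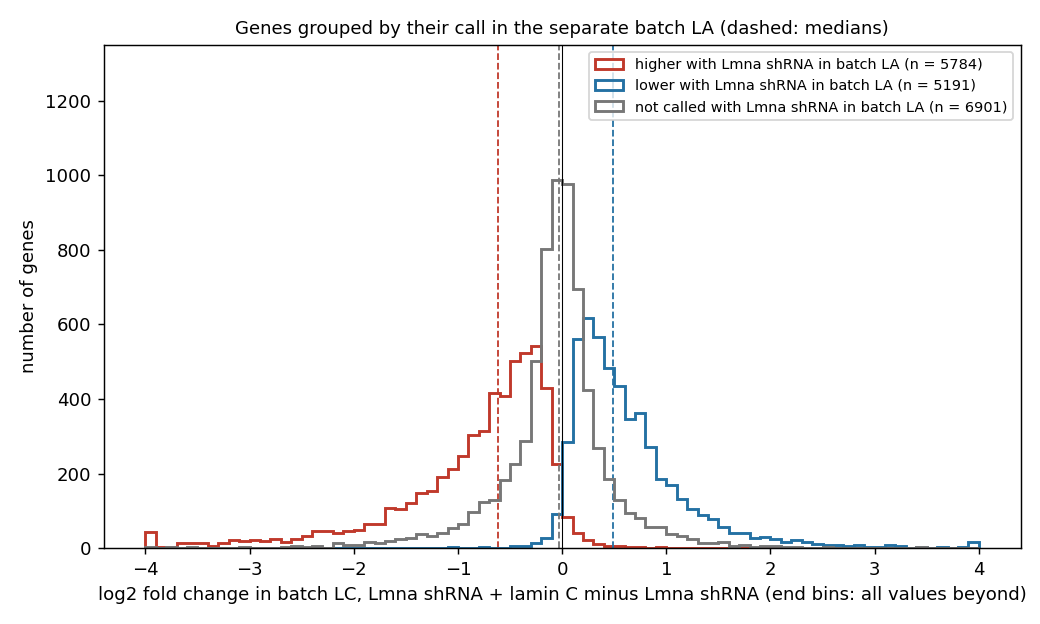
Number of genes by their log2 difference between lamin C and Lmna shRNA libraries of batch LC, drawn separately for genes higher (n = 5784), lower (n = 5191) and not called (n = 6901) between Lmna shRNA and control in batch LA. Dashed lines mark the medians of -0.617, 0.489 and -0.0279.

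The effect of lamin C was set against that of lamin A by the difference of the 2 effects, each taken against the Lmna shRNA libraries of its own batch. This difference was called for 3350 genes (18.7%), 1581 higher (8.84%) and 1769 lower (9.9%) with lamin C, and 725 of them were at least 2-fold (4.06%). Each lamin was used in 1 batch, so lamin and batch cannot be told apart beyond what each batch's own Lmna shRNA libraries remove. Lmna rose by 3.29 ± 0.0885 with lamin C and by 2.07 ± 0.0844 with lamin A, a difference of 1.21 ± 0.115 log2 (adjusted p = 3.6e-06). Timp1 changed by -2.775 ± 0.19 with lamin C and 0.40 ± 0.17 with lamin A (difference -3.17 ± 0.25 log2, adjusted p = 5.51e-07), and Lox by -3.59 ± 0.22 and -0.59 ± 0.19 (difference -2.99 ± 0.28 log2). Prg4, the lubricant proteoglycan 4, fell from 104, 88.9 and 143.5 CPM to 24.7, 9.97 and 20.5 CPM with lamin C (-2.62 ± 0.23 log2), and its effect with lamin A was 0.83 ± 0.215 (difference -3.445 ± 0.32 log2, adjusted p = 3.05e-06). Among the rises, Clcn1 differed by 2.62 ± 0.62 log2, Mylk4 by 2.06 ± 0.32 log2, Scn4b by 2.02 ± 0.54 and Cngb3, a cyclic nucleotide-gated channel subunit, by 2.33 ± 0.32 log2 (adjusted p = 8.24e-05). Tnnt1 rose by 1.89 ± 0.0886 with lamin C and stood at 0.10 ± 0.0904 with lamin A (difference 1.79 ± 0.13 log2, adjusted p = 3.18e-07).

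Gene groups differed between the lamin C and lamin A effects in the same test, with the same limit that each lamin was used in 1 batch. Lmna itself rose further with lamin C, and the part of its level in these differences was not tested. Hearts given lamin A had 16.1% of genes higher and 13.7% lower than their own Lmna shRNA libraries. Of the 33 matrix genes 30 fell further with lamin C (0 the other way), with a median difference of the effects of -1.47 log2 beside -0.0128 over all genes. The lamin A effect on this list had a median of -0.463 log2, with 19 genes lower. Fibroblast markers differed in 9 of 12, all lower with lamin C, macrophage and monocyte markers in 13 of 20, all lower, and cytoskeleton and membrane repair genes in 17 of 23, all lower. Of the 20 genes of the unfolded protein response 14 were lower in the difference: with lamin A 8 of them had risen and 2 fallen (median log2 difference 0.165 log2), whereas with lamin C 1 had risen and 13 fallen. All 25 citric acid cycle genes were higher in the difference (median log2 difference 0.422 log2), on top of a lamin A effect with a median of 0.558 log2. The ion channel list was higher in 16 of 25 and lower in 1. Interferon genes had fallen in 34 of 35 with lamin A (median log2 difference -0.854 log2), and 10 of them were lower and 1 higher in the difference, a count that became 17 lower without replicate 2 of the Lmna shRNA group of batch LA.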

How the data were processed

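Polyadenylated RNA of the heart apex was measured in 18 libraries in 6 groups of 3, made as directional libraries per the labels' protocols. The authors deposited integer read counts per gene with no scaling, and FPKM values that equal the count over gene length and 1 adjusted constant per library, as the values show. The submitters' processing notes name HISAT2 2.0.5, featureCounts 1.5.0-p3, StringTie 1.3.3b, DESeq2 1.20.0 and build mm10, with no role for any of them. Groups were taken from the sample titles.

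Counts of all 18 libraries were fitted in edgeR 4.0.16 (R 4.3.3) with TMM scaling, the default filter on low counts over 6 groups and the quasi-likelihood test (12 residual degrees of freedom). P-values were adjusted by Benjamini-Hochberg over 17876 genes at a threshold of 0.05. The SE of a log2 difference was derived from the test statistic. CPM are counts relative to the TMM-scaled library total. On simulated counts for 17685 genes, the test recovered 76.1% of 67 genes changed 1.5-fold, 89.6% of 67 changed 2-fold and 100% of 66 changed 4-fold, with 12 false calls. Only these genes were changed, in directions drawn at random, and genes of low count were left out of them. In the data 54.1% of genes were called, so these figures do not give the error of the main comparison or of its scaling. Libraries held 31418657 to 41259968 counts, and 3 libraries a group limit the precision.

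The comparison and the 45 gene lists (31 pathway and 14 cell type lists, 846 different genes) were chosen with earlier results of these data known. Members that failed the filter were not tested, and "of" counts are of those tested. The rule for naming took Lmna, the steepest changes of called protein-coding genes (8 a direction, groups without overlap, mean reaching 5 CPM), from each list the 4 called members of lowest p and the 2 uncalled of highest CPM, genes 2-fold outside both other groups, and up to 4 genes a direction for the difference between lamins. Nppa, Nppb, Myh6, Myh7, Slc8a1, Fkbp1b, Pfkp, Col1a1, Timp4, Lyve1, Timd4, Isg15, Ifit1, Irf1, Atf3, Gdf15 and Chac1 fall outside that rule and were chosen after their values were seen. Some genes that the rule names are not reported here.

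Alternatives were DESeq2 1.42.0, its size factors in edgeR, library totals alone, other filters, limma 3.58.1 on log2(FPKM + 1) and log2(FPKM + 0.1), mitochondrially encoded genes removed, the compared groups alone, replicate number as a block and each library left out. Promoter sequences are RefSeq's for GRCm38.p6. Besides the motifs shown, the clock factor letters CACGTG and the cell cycle letters TTTGAA were searched in the same way. CACGTG stood in 5 of 16 matched clock genes, 0 of the 1 matched lower gene, and in 8.09% of all genes. TTTGAA stood in 10 of 22 matched cell cycle genes, 6 of the 15 matched lower ones, and in 20.2% of all genes.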

Additional observations from a re-analysis of the deposited data

How the results depend on the processing

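Under each alternative run, the count of genes called between lamin C and Lmna shRNA kept within 1.5 times of its main value. The Lmna difference kept its side of the threshold. The difference in mitochondrial share stayed positive in each run made for it. With at most 3 libraries a group its exact permutation p cannot fall under 0.1, so its side of the threshold was fixed in advance. Of the 9662 calls, 9195 were also called in the same direction by DESeq2 and 7407 with library totals alone, where 172 were called in the opposite direction. Library totals alone gave 2337 higher and 9213 lower genes for lamin C against Lmna shRNA, 2879 higher and 293 lower against control, and 924 higher and 2749 lower for the difference from lamin A. They also gave 8610 genes higher in batch LA and lower with lamin C, and 1845 the other way. On log2(FPKM + 1), log2(FPKM + 0.1) and log2(FPKM + 1) without a filter, limma called 910, 1558 and 904 genes at least 2-fold against Lmna shRNA, 78, 266 and 72 against control and 207, 441 and 188 for the difference from lamin A; the pseudocount shrinks the differences of low genes. Without a filter limma called 1056 genes higher than control.

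Leaving out 1 library at a time gave 8551 to 9198 calls against Lmna shRNA (4174 to 4396 higher, 4377 to 4802 lower, 2429 to 2928 at least 2-fold), 1507 to 2680 against control (1066 to 1620 higher, 441 to 1060 lower) and 2478 to 3397 for the difference from lamin A. The Lmna difference stayed between 3.21 and 3.39 log2. Same-numbered lamin C and Lmna shRNA libraries did not deviate together (correlations of -0.0312, 0.0472 and -0.0795), so the numbers give no pairing. With replicate number as a block, 9391 genes were called against Lmna shRNA (4496 higher, 4895 lower, 2755 at least 2-fold), 2464 against control and 3136 for the difference from lamin A, and the Lmna difference was 3.29 log2 (3.285).

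The limits are 3 libraries a group, 1 batch per lamin, no record of what controls received, and gene-level counts that cannot separate lamin A from lamin C or vector from mouse transcripts. Tissue RNA does not separate cell numbers from RNA per cell.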
